A study of Mus musculus with 60 samples.

Results

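The cytosolic ribosomal protein genes (RP genes) encode the proteins of the ribosome that translates the mRNA of the nucleus. They were taken as the rows of the deposited count table whose Ensembl transcript maps in GENCODE M21 to an Rpl, Rps, Rplp or Rpsa symbol, so that the choice used names and no measured value. Of the 27665 rows of the table, 85 met this rule and belonged to 83 genes. The large subunit, with its stalk, accounted for 53 rows and the small subunit for 32. Rpl3 and Rps14 each had a second row for another transcript, and their paired rows share reads. The 80 rows of mitochondrial ribosomal protein genes, whose products serve the separate ribosome of mitochondria, were used for contrast.

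A cytosolic ribosome joins a small subunit, which reads the mRNA, and a large subunit, which forms the peptide bond, and both are built from rRNA and RPs in the nucleolus. RP genes are short, intron-containing and among the most strongly transcribed genes of dividing cells, and many carry a small nucleolar RNA (snoRNA) gene in an intron. Their mRNAs start with an oligopyrimidine tract (the TOP motif) that places their translation under growth control, and embryonic stem cells are known for rapid proliferation.

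Nascent RNA was measured by EU-seq, in which cells take up 5-ethynyluridine for 20 min and the labelled RNA is captured and sequenced, in 60 libraries of 20 groups. Every mouse E14 embryonic stem cell (mESC) line and the neural progenitor cells (NPCs) carried a degron, a tag through which a small molecule directs a protein to the proteasome. GFP-AID-Rad21 cells lose RAD21, a subunit of the cohesin ring, upon addition of auxin (IAA, 500 µM). They were measured as mESCs at 4 h in an initial experiment (2 control and 2 treated libraries) and an additional experiment (12 and 12), and as NPCs at 1, 2 and 4 h or after the CBP/p300 inhibitor A-485 (10 µM, 1 h), with 2 libraries in each NPC group. GFP-AID-Ctcf mESCs lose CTCF, the DNA-binding protein that halts cohesin, and were treated with IAA for 6 h (4 control and 4 treated libraries, 2 of each unstranded and 2 stranded). GFP-FKBP12F36V-Ctcf mESCs carried a CTCF with altered residues in its N-terminal part (CTCF-YF-AA), which impair the contact of CTCF with cohesin, and received dTAG13 (200 nM) for 2 or 4 h. The bTAG-delN-CTCF/dTAG-CTCF-delC mESCs (dN/dC-CTCF) held an N-terminally deleted CTCF that AGB1 (100 nM) removes and a C-terminally deleted CTCF that dTAG13 (100 nM in the labels) removes, and received one or both agents for 2 h. All groups outside the additional experiment and the CTCF-AID line had 2 libraries. No untagged cells received the agents in these libraries, so an effect of an agent apart from its target cannot be told apart from that of the depletion. The degrons act on the protein, so nascent Rad21 or Ctcf RNA does not check the depletion. The study's reporting summary calls the replicates of the RAD21 and CTCF depletions biological, without saying what was separate between them. The p-values and SEs rest on the spread between these libraries, which may be technical, moderated by spread pooled over genes. In the initial mESC experiment and in CTCF-YF-AA cells at 2 h the edgeR tests had 30400 and 28000 total degrees of freedom. There the pooled spread decides the p-values almost alone.

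Library totals ran from 4027449 to 21898781 counts. Between 0.506% and 1.60% of a library's counts lay in RP genes, and the reads in RP genes numbered 53306 to 222203 per library. Within CTCF-AID cells the stranded replicates stood apart from each other, with RP genes taking 1.32% of the counts in control replicate 1 and 0.809% in control replicate 2. Marker genes followed the labels, as the summed level of the mESC markers was 5456 CPM (counts scaled to a common library total) in mESC controls of the additional experiment and 59.2 CPM in NPC controls, and that of the NPC markers 119 and 1217 CPM. Of the 10 NPC markers, Hes5 was below 1 CPM in NPC controls, and the list of neuron markers summed to 278 CPM there against 67.4 CPM in mESC controls.

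RP genes had a median gene body of 3232 bp, from 828 to 31397 bp, against 14402 bp over all rows. A median of 27.9% of their length was exonic, and 29 of the 85 rows held a snoRNA gene on their own strand. Their mature sequences are copied across the genome as processed pseudogenes, and 61 rows had at least 1 annotated pseudogene named after them, 292 in all. The authors aligned reads without splicing and removed those with a mapping quality under 10, so exonic reads shared with a pseudogene can be missing; how far was not tested. Other rows, which can belong to the same gene, overlapped 16 rows. They covered most of 6 of them (Rpl13, Rpl13a, Rpl36al, Rps10, Rps28 and the short row of Rps14, which lies within the long row of Rps14).

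RP genes were among the most strongly transcribed genes of both cell types. In mESC controls of the additional experiment their median level was 29.5 CPM per kb of gene body, against 0.318 over all genes with counts and 4.38 for mitochondrial RP genes, and 63 of the 85 rows lay in the top 1% of all genes. In NPC controls the median was 17.8, with 27 rows in the top 1% and 80 in the top 10%. Rpl8, a core protein of the peptidyl transferase region, was highest in both, at 107 ± 5.28 (SD, n = 12) CPM per kb in mESCs and 42.6 ± 3.79 (SD, n = 2) in NPCs. Rps9, of the small subunit, followed at 105 ± 4.27 and 42.4 ± 0.0394. Next came Rpl3 in mESCs (83.5 ± 4.16) and Rpl23 in NPCs (41.6 ± 0.475). In mESCs Rpl8 and Rps9 did not differ beyond their spread, nor did the 3 highest genes of NPCs differ by more than the spread of Rpl8. At the lower end of mESCs lay Rpl3l (0.0947), the long row of Rps14 (5.31) and Rpl39l (10.6), and at that of NPCs Rpl39l (0.0157), Rpl10l (0.0976) and Rpl3l (0.100). Apart from the long Rps14 row, which is 31397 bp long and holds the short row within it, these are paralogs of another RP gene.

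**Figure D1:**
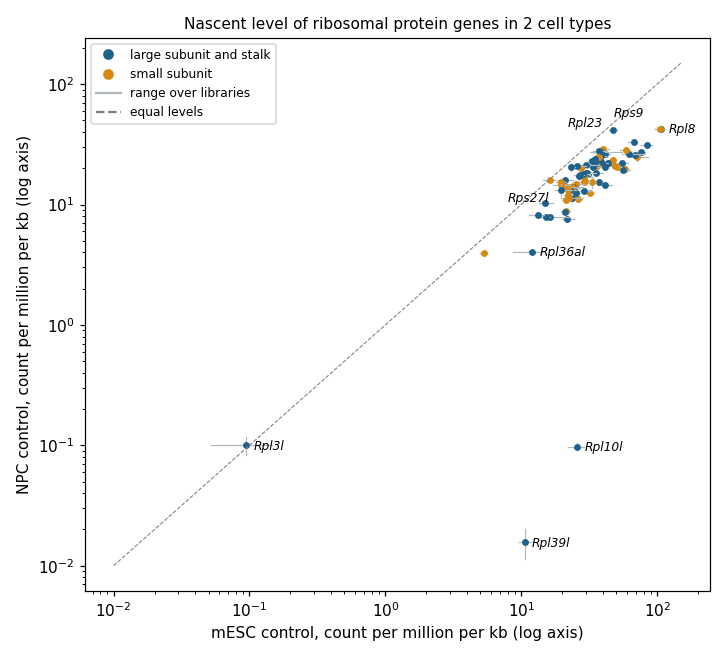
Level of each RP gene row in CPM per kb of gene body, in mESC controls of the additional experiment (x axis, mean of 12 libraries, log scale) and NPC controls (y axis, mean of 2 libraries, log scale); blue points are the large subunit and stalk, orange points the small subunit, grey bars the range over libraries and the dashed line equal levels. Most rows lie below the line of equality, Rpl8 reaches 107 and 42.6, and Rpl39l and Rpl10l fall far from the rest at 0.0157 and 0.0976 in NPCs.

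Compared with mESC controls, 83 of the 84 RP gene rows tested were lower in NPC controls and none was higher by edgeR's quasi-likelihood test with Benjamini-Hochberg adjustment, against 41.2% of all genes lower and 48.6% higher. The median log2 difference of the members was -0.71, while that of all genes was 0.11 and that of other genes of similar length (1789 to 6082 bp) 0.28. With the mESC controls of the initial experiment instead, 55 members were lower and 4 higher, with a median of -0.33, against 40.5% and 43.6% of all genes. With a trend along gene length and level removed, 68 were lower and 7 higher, with a median of -0.34, against 45.9% and 41.6% of all genes. Cell type, label batch and experiment changed together and cannot be told apart.

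The stalk proteins, which recruit translation factors to the large subunit, were among the genes with the larger differences. Rplp0 measured 151, 158 and 170 (lowest, median and highest) normalised CPM in the 12 mESC controls and 73.0 and 66.6 in the NPC controls. Its log2 difference was -1.20 ± 0.0448 (SE, adjusted p = 1.8e-29), and those of Rplp1 and Rplp2 were -1.14 and -0.91. The groups did not overlap for any of the 3 stalk genes. Rpl22, another large subunit protein, was lower by -1.19 on the log2 scale and its paralog Rpl22l1 by -0.44. Rpl3, a core protein, was at -1.33 and -1.43 in its 2 rows. Rps4x, the X-linked form of a small subunit protein, was at -0.83, and Rpsa, which also serves as a laminin receptor precursor, at -0.82. For the proteins of the 5S rRNA particle, which also restrain MDM2, Rpl5 was at -0.67 and Rpl11 at -0.27. Rpl24 was the member nearest to no difference among those called (-0.09, adjusted p = 0.0491), and its NPC values of 122 and 105 overlapped with the mESC range of 114 to 131. Rps27l, the p53-responsive paralog of Rps27, was the member that was not lower. It measured 49.8, 56.7 and 60.7 in mESCs and 58.6 and 57.7 in NPCs (log2 difference 0.05 ± 0.0517, adjusted p = 0.379), while Rps27 itself was lower (-0.33).

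The paralogs Rpl39l and Rpl10l were close to absent in NPCs. Rpl39l, known mainly from testis, measured 45.5, 48.9 and 54.8 normalised CPM in mESC controls, and 1 and 2 reads were counted in the NPC controls. The ratio of mESC to NPC level was 663.32, with an exact Poisson 95% interval of 226.97 to 3216.49 that covers the counting error of the 3 NPC reads alone. For Rpl10l, a single-exon autosomal copy of the X-linked Rpl10, 4 NPC reads gave a ratio of 264.74 (interval 103.40 to 971.64). Their partners Rpl39 and Rpl10 were lower in NPCs by far less, at -0.996 and -0.601 on the log2 scale. Rpl36al was at -1.48 and Rpl36a at -0.46, Rpl7l1 at -0.73 and Rpl7 at -0.64. Rpl3l, the muscle form of Rpl3, had a mean of 12.8 reads in mESC and 17 in NPC controls and was not tested here. A gene model on the same strand covers 93.1% of Rpl36al, so its reads cannot be assigned to it with certainty.

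Acute loss of RAD21 left the level of RP genes within a narrow range in mESCs. In the additional experiment with 12 libraries a group, 5 of the 84 rows tested were lower and 12 higher, against 25.7% and 33% of all genes, and the median of the members was 0.02 (all genes 0.03). Rpl7l1, a paralog of Rpl7 with a role in assembly of the large subunit, was the called member that moved the same way in all 12 same-numbered comparisons of libraries. Its control libraries measured 204.3, 216.5 and 227.5 normalised CPM (lowest, median and highest) and its IAA libraries 186.2, 192.6 and 200.4. The groups did not overlap and the fall was -0.16 ± 0.0193 on the log2 scale (SE, adjusted p = 4.51e-10). The other members that fell were Rps24 (-0.08), Rpl30 (-0.07), Rpsa (-0.06) and Rplp2 (-0.05). Among the members that rose, Rpl29 (0.17), Rpl10l (0.16) and Rps26 (0.15) had the highest values, each with overlapping groups and 11 of 12 pairs higher. The trend of fold change along gene length, fitted on all other genes, was then removed. This gave 30 members lower and none higher at the same threshold, against 32.1% and 26% of all genes. Removal of a joint trend along length and level left 1 lower and 15 higher, against 28% and 25.5% of all genes. Library medians of the members lay between -0.09 and 0.13 in controls and between -0.05 and 0.22 in IAA libraries. The highest of each, control replicate 1 and IAA replicate 8, stood apart. IAA replicate 8 was the only library of this experiment left out singly, in a fit that was not planned. Without it the counts were 7 lower and 9 higher, with no share over all genes given. Without replicate 1, the single library pair of its label batch, they were 5 and 16, against 25.4% and 32.4% of all genes. With label batch as a covariate they were 5 and 13, against 25.9% and 33.5%.

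In the initial mESC experiment none of 84 members was lower and 19 were higher, against 5.15% and 3.49% of all genes, with a median of 0.19. Other genes of similar length had a median of 0.12, compared with 0.01 over all genes, so that short genes as a class lay above the rest. Rps23, a protein of the decoding centre, measured 36.8 and 31.3 normalised CPM in controls and 44.6 and 45.0 after IAA (log2 fold change 0.40 ± 0.0989, SE, adjusted p = 0.00147). Rpl36a (0.36, adjusted p = 0.00774) and Rpl18 (0.36, adjusted p = 0.000993) followed, also without overlap between the groups. In the additional experiment the same 3 genes were at -0.04, 0.07 and 0.05 and were not called. The count was unstable, since removal of the length trend left 1 member higher and DESeq2 called 1. It was 55 without control replicate 1, 3 without control replicate 2, 7 without IAA replicate 1 and 0 without IAA replicate 2.

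**Figure D2:**
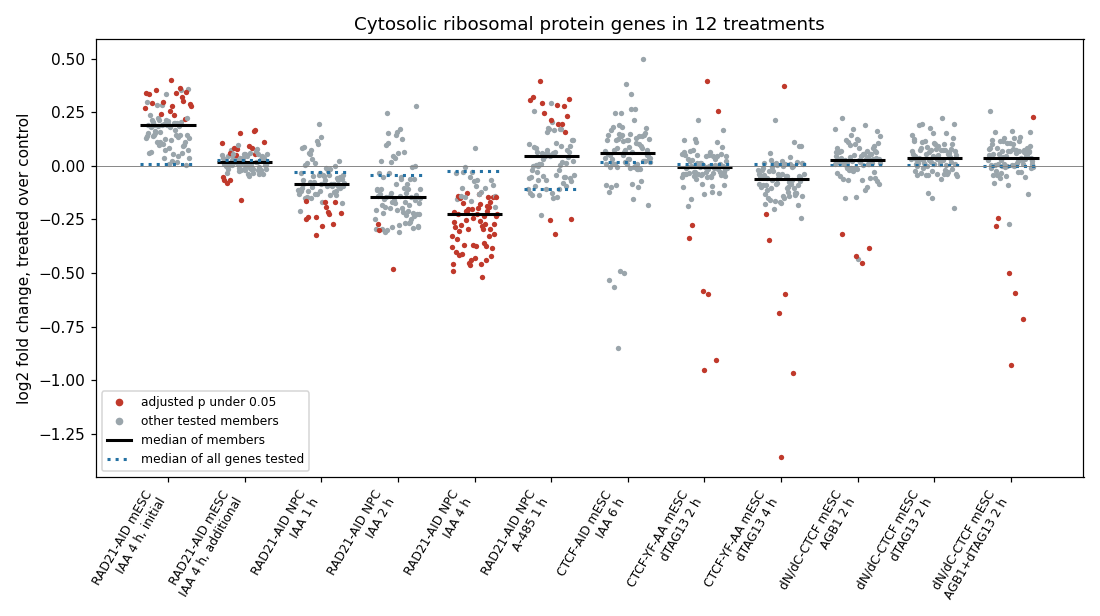
Log2 fold change, treated over control, of every tested RP gene row in the 12 treatments. Red points passed the test, grey points did not, and black bars are the medians of the members and dotted blue bars those of all genes tested; the NPC 4 h column is shifted downwards with its median at -0.22 and 61 red points, whereas the CTCF lines have medians near 0 with single genes far below.

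In NPCs the RP genes fell as a group at 4 h of IAA. Of 82 rows tested 61 were lower and none higher, against 24.5% of all genes lower and 15.4% higher. Their median was -0.22, a change of -14.3%, while all genes had a median of -0.02 and other genes of similar length 0.08. All 61 were lower in both same-numbered pairs. This uses the libraries behind the calls and is no separate check, and the numbers were not taken to pair these libraries.

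By role, 36 of 50 large subunit rows (median -0.22) and 25 of 32 small subunit rows (median -0.22) were lower. Rplp2, of the stalk, measured 94.5 and 84.6 normalised CPM in controls and 61.2 and 63.7 after IAA, a log2 fold change of -0.52 ± 0.0535 (SE, adjusted p = 2.02e-09). Rpl10a, a protein beside the site where tRNA leaves, went from 71.5 and 63.8 to 49.7 and 46.2 (-0.49 ± 0.0597, adjusted p = 5.17e-08). Rps13, of the small subunit platform, went from 39.7 and 37.5 to 27.7 and 28.2 (-0.46 ± 0.0702, adjusted p = 2.72e-06). These 3 had the lowest values, and their groups were separated by more than the spread of either. Rplp0 fell as well (-0.34), whereas Rplp1, the partner of Rplp2 in the stalk, was at -0.03 (adjusted p = 0.802) with overlapping groups. Rpsa (-0.41), Rps27a, which is made as a fusion with ubiquitin (-0.37), Rpl5 (-0.27) and Rpl11 (-0.27) fell. Among the paralogs Rpl22l1 (-0.37), Rps27l (-0.20) and Rpl7l1 (-0.13) fell, and Rpl36al was at -0.01 (adjusted p = 0.984). The highest member was Rpl36, at 0.09 (adjusted p = 0.706). Of the 29 rows with a snoRNA gene 25 were lower, with a median of -0.30, and of the 53 tested rows without one 36 were lower, with a median of -0.19; the difference between these classes was not tested.

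**Figure D3:**
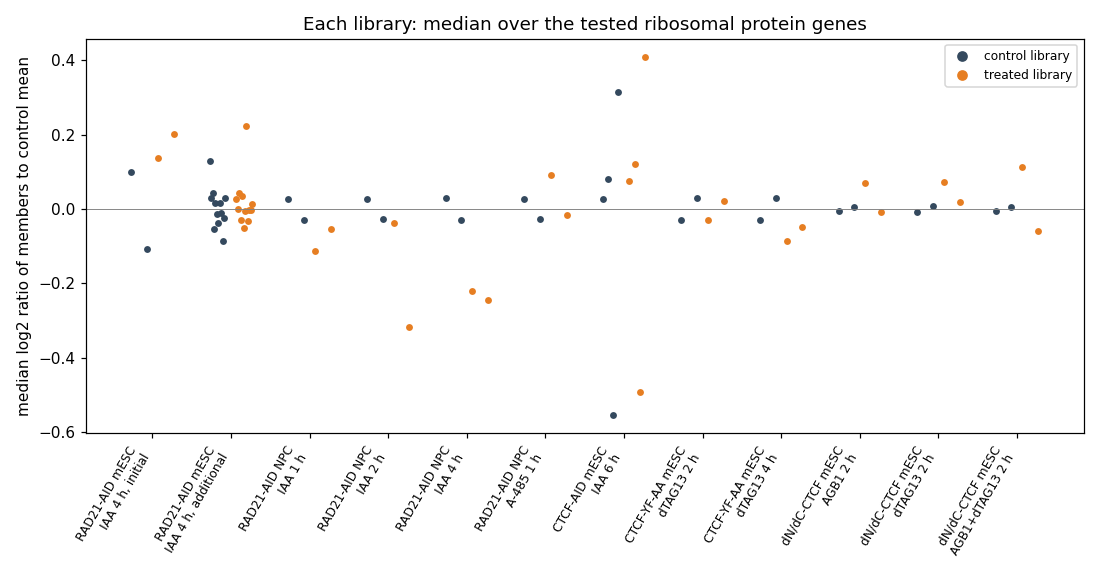
Median log2 ratio of the RP genes to the control mean in each library (y axis) for the 12 treatments (x axis), with control libraries in dark grey and treated libraries in orange. Both NPC IAA 4 h libraries lie at -0.25 and -0.22, below both controls, while the NPC IAA 2 h libraries differ from each other (-0.32 and -0.04).

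At 1 h and 2 h of IAA fewer members passed the test. At 1 h, counted within 90 kb of the gene start, 13 of 82 rows were lower and none higher (10% and 6.88% of all genes), with a median of -0.09. Rps13 had the lowest value (-0.32 ± 0.0786, adjusted p = 0.0067), from 46.4 and 43.9 to 32.9 and 39.0 normalised CPM. Rpl36a (-0.28) and Rps16 (-0.27), a small subunit protein, followed, and for none of the 3 did the groups overlap. DESeq2 called none of the 13 at 1 h, and edgeR called 2 without control replicate 1, 4 without IAA replicate 1 and 21 without IAA replicate 2. At 2 h, 3 of 82 rows were lower (11.6% of all genes) and none higher (3.82%), with a median of -0.15. The 3 were Rps13 (-0.48), which went from 39.0 and 36.9 to 31.9 and 21.2, Rps24 (-0.30) and Rps19 (-0.27). IAA replicate 2 lay far below replicate 1 for RP genes at 2 h, with library medians of -0.32 and -0.04. Without replicate 1 the count was 54 lower and 3 higher, without replicate 2 it was 3 lower and 2 higher, without control replicate 1 it was 1 lower and without control replicate 2 it was 6 lower and 1 higher. The 3 NPC time points share their control cells. In the direct comparison of 4 h with 2 h no member was called by edgeR (1.79% of all genes lower and 0.866% higher) or by DESeq2, and the median was -0.11. By edgeR 17 were lower at an unadjusted p under 0.05, where no share over all genes is given to set beside them. At the adjusted threshold, where the full data gave none, the count was 50 lower without 2 h replicate 2, and 7 lower and 5 higher without 2 h replicate 1.

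The effect of 4 h of IAA was then compared between NPCs and mESCs of the additional experiment in 1 joint fit, an alternative added after the values had been seen. The effect was lower in NPCs for 56 of 84 members and higher for none, while over all genes 21.4% were lower and 12.5% higher. The median difference of the members was -0.25 on the log2 scale, against -0.05 for all genes. Rps26 had the greatest called difference (-0.59 ± 0.119), followed by Rps13 (-0.52 ± 0.0931, SE), Rpl10a (-0.49 ± 0.072) and Rplp2 (-0.47 ± 0.0617) with adjusted p = 8.15e-06, 1.42e-07 and 8.51e-09. Rplp0 differed by -0.38, Rpsa by -0.35, Rpl11 by -0.28 and Rpl5 by -0.23, while Rplp1 (-0.10, adjusted p = 0.581) and Rps27l (-0.19, adjusted p = 0.0558) did not pass. With the length trend of each cell type removed, 57 members were lower and none higher, against 14% and 16.6% of all genes. Cell type and label batch cannot be told apart in this comparison either.

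**Figure D4:**
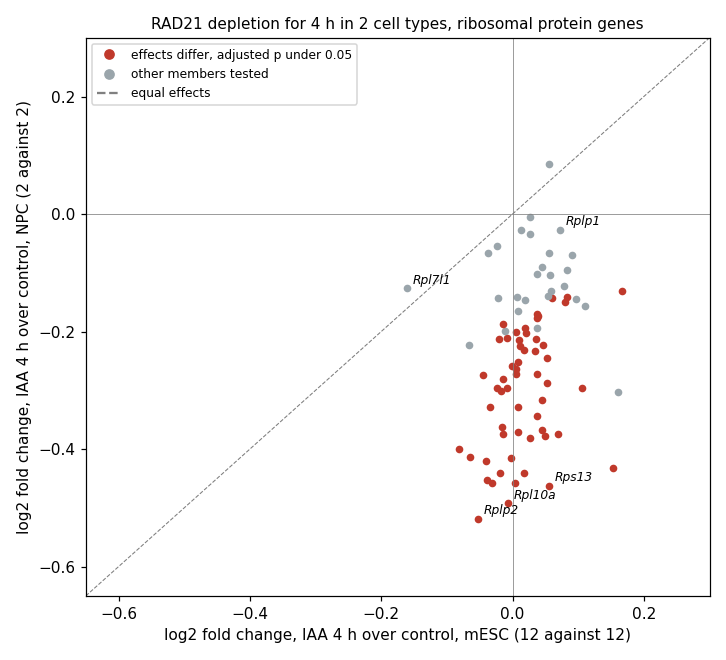
Log2 fold change after 4 h of IAA in mESCs of the additional experiment (x axis, 12 against 12 libraries) and in NPCs (y axis, 2 against 2), one point for each RP gene row; red points are the rows whose effect differed between the cell types and grey points the other rows tested, with the line of equal effects drawn. The points spread narrowly along x and mostly below the line, with Rplp2 at -0.52 in NPCs; Rpl39l, with 1 and 2 reads in the NPC controls, lies outside the axes.

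A-485, which blocks the histone acetyltransferases CBP and p300, gave a mixed result in NPCs. Its control cells were those of the IAA time points. With counts over the first 90 kb, 3 of 82 members were lower and 13 higher, against 41.1% and 21.5% of all genes, with a median of 0.04 (all genes -0.11). The stalk genes Rplp1 and Rplp0 and the stalk-base gene Rpl12 had the highest values. Rplp1 measured 40.5 and 44.8 normalised CPM in controls and 52.6 and 59.9 after A-485 (0.40 ± 0.0828, SE, adjusted p = 0.000592), Rplp0 rose by 0.32 and Rpl12 by 0.31, and the groups overlapped for none of them. Rplp2 was at -0.02 (adjusted p = 0.814). Rps27l fell from 71.2 and 70.2 to 55.6 and 57.8 (-0.32 ± 0.0665, adjusted p = 0.000616), and Rpl23a and Rpl37 by -0.25 each, also without overlap. Of the 80 mitochondrial RP genes 43 were higher. The centring of fold changes on the median of expressed genes moved all values by 0.12 in this comparison. Without it 1 member was lower and 38 higher, against 35.3% and 32.4% of all genes. The direction of members near 0 thus depends on the scaling. The counts were 20 lower without A-485 replicate 1, 32 higher without A-485 replicate 2, 1 lower without control replicate 1 and 5 higher without control replicate 2.

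In CTCF-YF-AA and dN/dC-CTCF cells most RP genes were not called, and each member called lower against controls was one of 6 genes. These were Rpl36, Rpl36a, Rpl5, Rpl11 and Rplp0 of the large subunit and Rps4x of the small, picked out after their values were seen. In CTCF-AID cells the main edgeR fit, which had no replicate block, called no member, whereas DESeq2 called 3 of these genes lower (3.31% of all genes). With the block edgeR called 17 members higher and 6 lower, against 15.8% and 12.3% of all genes. Of the 6 lower ones, 5 were among these genes. In CTCF-YF-AA cells 6 of 84 rows were lower at 2 h of dTAG13 (2.61% of all genes) and 2 higher (1.36%), and 6 were lower at 4 h (3.2%) and 1 higher (1.74%). The medians of the members were -0.01 and -0.06. The 2 time points share their controls.

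Rpl36 had the lowest fold change. Its controls measured 21.1 and 19.4 normalised CPM, the 2 h libraries 10.8 and 10.1 and the 4 h libraries 7.48 and 8.09. The log2 fold changes were -0.95 ± 0.214 (SE, adjusted p = 0.00051) and -1.36 ± 0.205 (adjusted p = 1.69e-06), and no treated library reached a control. Rpl36a, another large subunit protein, went from 59.5 and 61.9 to 31.5 and 33.3 at 2 h and 28.8 and 33.3 at 4 h (-0.90 and -0.97, adjusted p = 3.68e-11 and 1.87e-09). Rpl5 went from 309 and 310 to 216 and 196 at 2 h and 210 and 200 at 4 h (-0.60 and -0.60, adjusted p = 6.46e-21 and 6.29e-13). All treated libraries of these genes lay below both controls.

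Rplp0 went from 180 and 184 to 127 and 118 at 2 h and 116 and 111 at 4 h (-0.58 and -0.69, adjusted p = 1.23e-13 and 3.77e-12). Rps4x went from 155 and 175 to 125 and 137 at 2 h and 141 and 145 at 4 h (-0.34 and -0.22, adjusted p = 0.000177 and 0.0285). Rpl11 went from 112 and 118 to 87.6 and 100 at 2 h and 95.7 and 86.0 at 4 h (-0.28 and -0.35, adjusted p = 0.0265 and 0.00156). The groups did not overlap for any of the 3. DESeq2 called 3 of the 6 genes at 2 h (Rpl36a, Rpl5 and Rplp0) and 4 at 4 h (with Rpl36), and the calls of Rps4x and Rpl11 were lost when single libraries were left out. Rpl11 was not called at 2 h without either of the controls or without dTAG13 replicate 1, nor at 4 h without control replicate 2 or dTAG13 replicate 2. Without control replicate 2 there were 2 members higher at 4 h.

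In dN/dC-CTCF cells the outcome depended on the agent. All treatments of this line were compared with the same control libraries. After AGB1, which removes the N-terminally deleted protein, 4 of 84 members were lower (1.45% of all genes) and none higher (0.69%). Rpl5 went from 338 and 347 to 254 and 248 (-0.45 ± 0.0484, SE, adjusted p = 1.08e-07), Rplp0 from 139 and 140 to 105 and 104 (-0.42 ± 0.0566, adjusted p = 7.15e-06) and Rps4x from 174 and 164 to 142 and 129 (-0.32 ± 0.0578, adjusted p = 0.000643). Rpl36a was the fourth, from 53.0 and 62.4 to 45.3 and 43.5 (-0.38 ± 0.085, adjusted p = 0.00714). All 4 had treated libraries below both controls. Rpl36 (-0.44, adjusted p = 0.341) and Rpl11 (-0.15, adjusted p = 0.333) did not pass. Without control replicate 2 there was also 1 member higher, and without AGB1 replicate 2 2 members were called, Rpl5 and Rplp0.

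dTAG13, which removes the C-terminally deleted protein in the same line, gave no called member among the 84 by edgeR or DESeq2, and 1 gene lower (0.00734%) and 10 higher (0.0734%) among all genes. At an unadjusted p under 0.05 edgeR gave 1 member lower and 9 higher. No share over all genes is given at that threshold, so these counts cannot be set against all genes. The 6 genes were between 0.01 (Rpl36) and 0.19 (Rpl11) on the log2 scale. Rpl5, for example, measured 355 and 355 after dTAG13. A direct comparison of the 2 agents, which differ in the deleted copy that they remove and were given for the same time, gave 5 members lower after AGB1 than after dTAG13 (1.36% of all genes) and none higher (0.556%). The labels give both agents at 100 nM, whereas the column names of the count table give dTAG13 at 200 nM in this line, so the doses may not be matched. The 5 were Rpl36a (-0.54 ± 0.0744, SE), Rpl5 (-0.50 ± 0.0399), Rplp0 (-0.47 ± 0.0504), Rps4x (-0.36 ± 0.0525) and Rpl11 (-0.34 ± 0.0657). Against controls Rpl11 was called after neither agent, at -0.15 after AGB1 and 0.19 after dTAG13. Rpl36 differed by -0.45 ± 0.179 (adjusted p = 0.357). Without dTAG13 replicate 1, 3 members were also higher. With both agents together edgeR called all 6 lower and 1 other member higher, against 4.7% and 1.96% of all genes. DESeq2 called 3 of the 6 lower (Rpl36a, Rpl5 and Rplp0), against 1.99% of all genes. The edgeR values were -0.93 for Rpl36, -0.71 for Rpl36a, -0.60 for Rpl5, -0.50 for Rplp0, -0.28 for Rps4x and -0.24 for Rpl11. Rpl7a, a snoRNA host, was the member that rose (0.23, adjusted p = 0.0457), and it was not called without control replicate 1, control replicate 2 or treated replicate 1. Without treated replicate 2 there were 5 members higher.

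**Figure D5:**
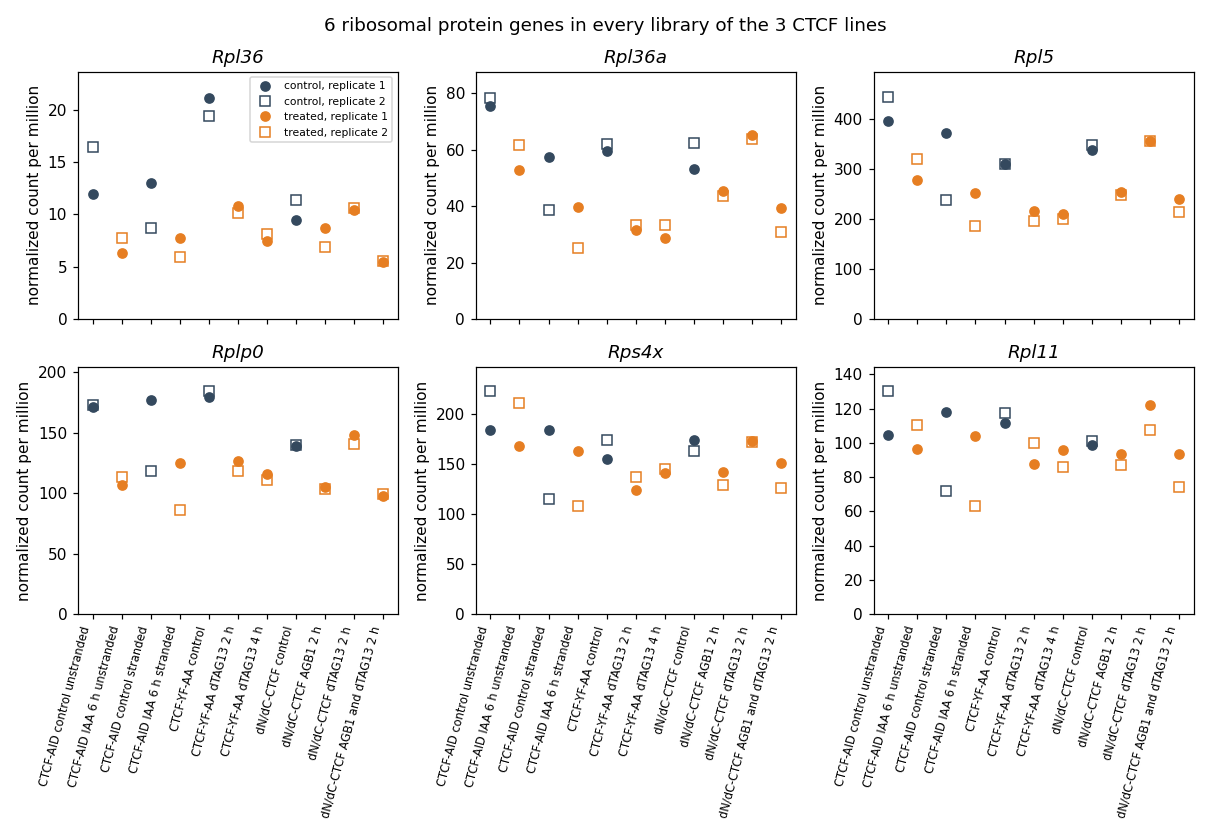
Normalised CPM of the 6 genes (one panel each, y axis from 0) in every library of the 3 CTCF lines (x axis, groups), controls in dark grey and treated libraries in orange, circles replicate 1 and squares replicate 2. The Rpl5 panel shows 309 and 310 in CTCF-YF-AA controls against 210 and 200 at 4 h, and the dTAG13-treated dN/dC-CTCF libraries at the level of their controls.

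Depletion of the whole CTCF for 6 h in CTCF-AID cells gave no called member by edgeR with library type as the only covariate (1.81% of all genes lower and 1.77% higher). That quasi-likelihood fit left out the pairing of same-numbered libraries, so its lack of calls rests on an unpaired fit. The paired fit is given below. At an unadjusted p under 0.05, 4 members were lower and 2 higher, with no share over all genes given at that threshold. DESeq2 called 3 lower (Rpl36, Rpl5 and Rplp0), near its share of 3.31% over all genes, which had 3.87% higher. Without the stranded control replicate 2 edgeR called 2 members lower and without the stranded IAA replicate 1 it called 1. Rpl36 measured 11.9, 16.4, 13.0 and 8.67 normalised CPM in controls and 6.26, 7.72, 7.71 and 5.93 after IAA (-0.85 ± 0.204, SE, adjusted p = 0.0681), with no overlap. Rplp0 measured 171, 173, 177 and 118 in controls and 107, 114, 125 and 85.8 after IAA (-0.56, adjusted p = 0.102), and its groups overlapped through the low control of stranded replicate 2. The stranded replicates 2 stood apart, with member medians of -0.56 (control) and -0.49 (IAA) against 0.03 to 0.41 in the other libraries, and their part in the result was not tested beyond the fits that follow. The same-numbered libraries deviated together in this line (correlations of 0.498 and 0.82). With the replicate number as a block, 6 members were lower and 17 higher, against 12.3% and 15.8% of all genes. Rpl36 (-0.83, adjusted p = 0.000577), Rplp0 (-0.56), Rpl36a (-0.50), Rpl5 (-0.48), Rpl11 (-0.18) and Rps18 (-0.15) were then lower, and Rps4x was not called (-0.12, adjusted p = 0.0522). Each of the 6 genes was lower in all 4 pairs. In unstranded libraries alone, where 2.97% of all genes were lower and 4.37% higher, Rpl36 (-1.01), Rplp0 (-0.64), Rpl5 (-0.49) and Rpl36a (-0.42) were lower and the long row of Rps14 higher, and in stranded libraries alone no gene was called at all; there they were at -0.68, -0.49, -0.49 and -0.57.

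The long row of Rps14 was the other call of CTCF-YF-AA cells. It rose from 214 and 231 normalised CPM to 290 and 299 at 2 h and 278 and 302 at 4 h (0.40 and 0.37, adjusted p = 3.29e-09 and 1.23e-06), without overlap, while the short row nested in it was at 0.04 and 0.02. In unstranded CTCF-AID libraries the long row was at 0.61 (adjusted p = 0.0114). The long transcript overlaps part of Ndst1, a heparan sulfate enzyme gene on the opposite strand, whose own rows were not called in CTCF-YF-AA cells (-0.30 and -0.23 at 2 h). In stranded libraries both rows had similar values, at 0.03 each in dN/dC-CTCF cells after AGB1 and 0.06 and 0.05 in CTCF-AID cells. The reads behind the difference between the rows lie outside the short row, and their strand cannot be told apart in unstranded libraries. Rpl23a, which binds near the exit tunnel, rose at 2 h (0.26, adjusted p = 0.0323) from 95.9 and 120 to 134 and 130, and was at 0.11 at 4 h (adjusted p = 0.555); without either treated library, without control replicate 1 or by DESeq2 it was not called at 2 h.

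Promoter sequences, from 250 bases before to 50 bases after the annotated start, were found in RefSeq (GRCm38.p6) for 63 of the 83 genes, and not for Rpl36 and 19 others. The RefSeq start lay within 100 bases of the start of the counted transcript for 50 of the 63 and up to 2614 bases away for the rest, so that their windows may sit apart from the measured start. For the genes printed here the distance was at most 56 bases. The fixed and free letters of a CTCF core motif, sought on both strands, were in 3 of the 63 promoters (4.76%) and in 2.43% of all 32851 promoters. Those 3 were Rplp0 and Rps4x, which are among the 6 genes, and Rpl38, which was called in none of the CTCF lines' treatments. With 1 mismatch allowed, an allowance made after the first search, 30.2% of RP gene promoters and 30.6% of all had a match, Rpl5 included. The upstream 250 bases of the 5 genes found among the 6, and of Rpl38 for contrast, are printed 5′ to 3′ on the gene's strand, with the match to the core in capitals. Rplp0 and Rps4x matched in full 177 to 166 and 56 to 45 bases before the start, Rpl38 122 to 111 bases before it and Rpl5, with 1 mismatch, 63 to 52 bases before it. Rpl36a and Rpl11 had no such match in this window. A match is a run of letters, and whether CTCF occupies it was not measured in these files. The windows are chr5:115559217-115559466 (plus strand), chrX:102189392-102189641 (minus strand), chr5:107900278-107900527 (plus strand), chrX:134585404-134585653 (plus strand), chr4:136053394-136053643 (minus strand) and chr11:114668330-114668579 (plus strand).
Rplp0: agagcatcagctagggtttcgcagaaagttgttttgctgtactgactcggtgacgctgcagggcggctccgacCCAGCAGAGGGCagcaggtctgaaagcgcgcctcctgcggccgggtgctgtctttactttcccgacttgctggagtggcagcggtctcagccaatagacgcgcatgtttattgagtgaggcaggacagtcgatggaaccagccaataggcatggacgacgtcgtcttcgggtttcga
Rps4x: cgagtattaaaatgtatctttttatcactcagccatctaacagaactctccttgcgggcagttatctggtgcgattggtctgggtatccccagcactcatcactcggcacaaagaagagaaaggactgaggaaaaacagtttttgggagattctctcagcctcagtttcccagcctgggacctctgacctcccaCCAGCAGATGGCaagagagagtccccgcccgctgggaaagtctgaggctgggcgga
Rpl5: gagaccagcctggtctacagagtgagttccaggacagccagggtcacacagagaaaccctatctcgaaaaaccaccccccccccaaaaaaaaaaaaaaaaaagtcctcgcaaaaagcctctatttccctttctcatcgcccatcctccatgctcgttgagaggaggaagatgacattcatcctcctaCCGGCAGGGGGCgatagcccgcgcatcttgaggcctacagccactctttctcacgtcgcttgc
Rpl36a: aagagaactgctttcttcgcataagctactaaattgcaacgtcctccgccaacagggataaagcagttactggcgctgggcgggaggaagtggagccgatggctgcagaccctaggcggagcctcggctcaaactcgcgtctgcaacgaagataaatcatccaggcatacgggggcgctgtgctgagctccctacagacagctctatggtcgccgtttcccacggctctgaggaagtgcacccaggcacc
Rpl11: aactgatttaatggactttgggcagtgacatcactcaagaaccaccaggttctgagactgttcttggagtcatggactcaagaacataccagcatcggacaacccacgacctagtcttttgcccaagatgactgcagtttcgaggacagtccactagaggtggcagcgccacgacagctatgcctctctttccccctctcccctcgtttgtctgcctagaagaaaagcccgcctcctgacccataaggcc
Rpl38: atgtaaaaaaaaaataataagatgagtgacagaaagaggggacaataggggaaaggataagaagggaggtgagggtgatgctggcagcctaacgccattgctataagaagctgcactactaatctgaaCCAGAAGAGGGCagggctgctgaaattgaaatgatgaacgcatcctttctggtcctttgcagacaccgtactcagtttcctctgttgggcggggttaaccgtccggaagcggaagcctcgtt

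Among other motifs, the ETS letters CCGGAAG were in 38.1% of the RP gene promoters and 8.86% of all promoters, the SP letters GGGCGG in 60.3% and 35.7%, the YY1 letters ATGGCGGC in 6.35% and 2.24% and the TATA letters TATAAA in 9.52% and 13.6%. SP letters can fall inside a longer GC stretch and were counted wherever they occurred. A C followed by 4 pyrimidines at the annotated start, the TOP start, was present in 19% of RP genes and 2.51% of all, and within 10 bases of the start in 55.6% and 30.7%.

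The genes that work with RPs were read from lists taken with earlier results known. In NPCs after 4 h of IAA, where 24.5% of all genes were lower and 15.4% higher, 33 of 45 ribosome assembly factors were lower and 1 higher, with a median of -0.26, and Dkc1, the pseudouridine synthase of snoRNA particles, had the lowest value (-0.60 ± 0.0693, SE, adjusted p = 1.97e-08), followed by Fbl, the rRNA methyltransferase fibrillarin (-0.55). Sbds, which frees the large subunit of EIF6, was the 1 that rose (0.25). Of 29 rows of other TOP mRNAs and translation factors 20 were lower (median -0.21), led by the snoRNA host Snhg1 (-0.47) and the nucleolar chaperone Npm1 (-0.42). Of 15 RNA polymerase I genes 5 were lower and 1 higher, near the share over all genes, with Polr1b, a core subunit, lowest (-0.54). Of 80 mitochondrial RP genes 5 were lower and 2 higher (median 0.02), so that the lower values were shared by the assembly and TOP lists and little by the mitochondrial RP genes; the difference between lists was not tested. In the CTCF lines the assembly factors Nle1 and Bysl, for the large and the small subunit, were lower in every treatment apart from dTAG13 alone in dN/dC-CTCF cells. Nle1 was at -2.23 and -2.37 after 2 and 4 h in CTCF-YF-AA cells, -1.17 after AGB1, -2.45 after both agents and -2.33 in CTCF-AID cells (adjusted p = 6.34e-05), and Bysl at -0.77, -0.86, -0.89, -1.05 and -1.13. No other assembly factor of the list was called in all 5. Treatments of the same line share their controls, so these 5 are not independent.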

How the data were processed

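EU-seq gene counts of 60 libraries were used. The authors trimmed reads with cutadapt, aligned them to mm10 with bwa, removed alignments with a mapping quality under 10 with SAMtools 1.4 and counted reads over the body of a representative transcript of each gene with HTSeq. The deposited values are raw counts. NPC libraries of 1 h IAA and A-485, with a second copy of the NPC controls, were limited to the first 90 kb. Whether counting used strand is not given in the sources used here.

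Of 27665 transcript identifiers 27455 were matched to GENCODE M21. Comparisons used R 4.3.3 and edgeR 4.0.16 (TMM, quasi-likelihood F test) on genes with a mean count above 20 in either group. Library type was a covariate in CTCF-AID cells, and the pairing by replicate number entered there only in the fit with a replicate block. Fold changes were centred on the median of genes above 15 TPM, and p-values were adjusted by Benjamini-Hochberg over all genes tested, with calls at an adjusted p under 0.05. Normalised CPM use TMM library sizes with this centring. The SE is the size of the log2 fold change divided by the square root of F. A gene length trend was removed as a gene-wise offset in edgeR from a loess curve (span 0.3) fitted on the other genes. DESeq2 1.42.0 was an alternative. The edgeR fit was tested on simulated data made from the RAD21-AID comparisons at 4 h. Library totals ran from 4027449 to 21898781, and the interval for low counts covers counting error only.

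Replicate numbers were taken to pair the libraries in CTCF-AID cells alone, since same-numbered libraries there deviated together, with correlations of 0.498 and 0.82. The lowest chi-square per gene between libraries of a group was 1.44, so none was treated as a duplicate. The members and gene lists were chosen with earlier results of these data known. The genes named are, in each comparison, up to 3 lowest and 3 highest called members that moved the same way in every same-numbered pair, the 3 highest and lowest levels, the paralogs with their partners, Rpl5, Rpl11, Rpsa, Rps27a, the stalk genes, RP genes outside the rule (1 is not reported here), and the 2 lowest and highest called of each other list. Names beyond these, among them the 6 genes of the CTCF lines as a group, Rps24, Rpl30 and Rps18, were added after their values were seen. The alternatives were DESeq2, no count filter, no centring, removal of a length or a length and level trend, a replicate block, label batch, library type and leaving out single libraries. In the additional experiment only IAA replicate 8 was left out singly, which was not planned.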

Additional observations from a re-analysis of the deposited data

Results flagged for a closer look

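The effect of 4 h of IAA on RP genes differed between NPCs and mESCs of the additional experiment. By the interaction term of the joint fit it was lower in NPCs for 56 of 84 members. The difference was -0.47 on the log2 scale for Rplp2, -0.49 for Rpl10a and -0.52 for Rps13. In mESCs these 3 genes were at -0.05, -0.01 and 0.05 and in NPCs at -0.52, -0.49 and -0.46. Label batch differed between the cell types as well and cannot be told apart from cell type.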

How the results depend on the processing

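With single libraries left out, the calls at 4 h in NPCs stayed between 53 and 62 lower and those between NPC and mESC controls between 81 and 83 lower. Calls ranged from 0 to 55 higher in the initial mESC experiment, 2 to 21 lower at 1 h, 1 to 54 lower and 0 to 3 higher at 2 h, 1 to 20 lower and 5 to 32 higher after A-485, and 0 to 50 lower and 0 to 5 higher for 4 h against 2 h. In the CTCF lines they ranged from 0 to 2 lower (CTCF-AID), 4 to 6 lower and 1 to 2 higher (CTCF-YF-AA, 2 h), 4 to 9 and 1 to 2 (4 h), 2 to 4 and 0 to 1 (AGB1), 4 to 7 and 0 to 5 (both agents) and 4 to 5 and 0 to 3 (AGB1 against dTAG13). Median log2 fold changes of the members ranged from 0.09 to 0.287 (initial mESC), -0.12 to -0.05 (1 h), -0.325 to -0.029 (2 h), -0.247 to -0.198 (4 h), -0.02 to 0.106 (A-485), -0.062 to 0.185 (CTCF-AID), -0.04 to 0.031 and -0.094 to -0.04 (CTCF-YF-AA), -0.006 to 0.067 (AGB1), 0.022 to 0.067 (dTAG13), -0.056 to 0.114 (both agents), -0.217 to 0.068 (4 h against 2 h), -0.057 to 0.032 (AGB1 against dTAG13) and -0.751 to -0.69 (NPC against mESC). A group left with 1 library was assumed to vary like the other. No share over all genes is given for fits with a single library left out, so their counts cannot be set against all genes.

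Percentages in brackets are the shares of all genes called the same way under the same setting. DESeq2 called 1 member higher in the initial mESC experiment (0.883%). It called 0 lower at 1 h (3.94%), 1 lower at 2 h (8.49%) and 8 higher after A-485 (14.1%). In CTCF-AID it called 3 lower (3.31%), and in CTCF-YF-AA at 2 h 3 lower and 1 higher (1.33% and 0.328%). With both agents there were 3 lower and 0 higher (1.99% and 0.647%). Without the count filter there were 22 lower and 1 higher at 2 h (10.2% and 4.27%) and 4 lower for 4 h against 2 h (2.7%). There were also 1 higher in CTCF-YF-AA at 2 h (0.694%) and 2 higher with both agents (1.47%). Without centring there were 6 lower at 1 h (7.4%), 0 at 2 h (9.21%), and 1 lower and 38 higher after A-485 (35.3% and 32.4%). Medians were then 0.167 after A-485, -0.191 at 4 h and -0.808 for NPC against mESC. Removal of the length trend gave 1 higher (2.79%, median 0.052) in the initial mESC experiment. In the additional mESC experiment it gave 30 lower and 0 higher (32.1% and 26%, median -0.05). In NPCs it gave 7 lower at 2 h (4.42%), a median of -0.299 at 4 h and 21 higher after A-485 (32.2%). It also gave 1 lower in CTCF-AID (1.88%), 1 higher in CTCF-YF-AA at 2 h (1.17%) and 2 higher with both agents (2.05%). The median for NPC against mESC was then -1.027. Removal of a length and level trend gave 2 higher in the initial (2.64%, median 0.072) and 1 lower in the additional mESC experiment (28%). In NPCs it gave 8 lower at 2 h (4.25%), and 1 lower and 41 higher after A-485 (31.5% and 34.1%, median 0.156). It also gave 1 lower in CTCF-AID (1.88%), 1 higher in CTCF-YF-AA at 2 h (1.3%) and 0 higher with both agents (1.97%). For NPC against mESC there were 7 higher (41.6%, median -0.344). With the initial mESC controls NPCs had 55 lower and 4 higher (40.5% and 43.6%, median -0.327). Unstranded CTCF-AID libraries alone gave 4 lower and 1 higher (2.97% and 4.37%). The causes were not tested.

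With the replicate number as a block, calls were 31 lower and 2 higher at 2 h (16.1% and 7.33% of all genes). After A-485 they were 6 lower and 20 higher (42.1% and 22.9%), and in CTCF-AID 6 lower and 17 higher (12.3% and 15.8%). There were 1 higher in CTCF-YF-AA at 2 h (0.721%), 2 higher with both agents (2.51%) and 1 lower for 4 h against 2 h (3.24%). Outside CTCF-AID cells the numbers were not taken to pair the libraries.

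Signs turned for values near 0 when single libraries were left out: Rps4x in CTCF-AID cells ranged from -0.2406 to 0.0279, and after dTAG13 in dN/dC-CTCF cells Rpl36 ranged from -0.1175 to 0.1532 and Rps4x from -0.008 to 0.0774. Of 709 values of single genes under an alternative, 601 kept direction and side of the threshold. Groups of 2 libraries limit the precision, and counts of 1 and 2 reads leave Rpl39l in NPCs without a usable fold change under treatment.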

Other observations

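Some proteins of the cytosolic ribosome carry a symbol outside the naming rule. Rack1, a scaffold on the small subunit, was lower in NPC than in mESC controls (-0.64 on the log2 scale), as were Fau, which encodes a small subunit protein fused to a ubiquitin-like one (-0.37), and the small subunit gene Rps3a1 (-0.29). After 4 h of IAA in NPCs Rps3a1 (-0.25) and Rack1 (-0.11) fell, while Fau (-0.26, adjusted p = 0.0946) did not pass. In the initial mESC experiment none of the 3 was called, with Rack1 at 0.11 (adjusted p = 0.477), Rps3a1 at 0.09 (adjusted p = 0.58) and Fau at 0.04 (adjusted p = 0.932).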
